A study of Mus musculus with 17 samples.

Results

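The genes of the IL-12 family cytokines and their receptors were examined in distant MC38 tumors of mice with and without cryoablation of the opposite tumor. The members were the 10 genes Il12a, Il12b, Il23a, Il27, Ebi3, Il12rb1, Il12rb2, Stat4, Il18 and Il18r1, taken by name from the 21931 genes of the deposited table. Il18r1 and Stat4 lie on chromosome 1, Il12a on 3, Il12rb2 on 6, Il27 on 7, Il12rb1 on 8, Il18 on 9, Il23a on 10, Il12b on 11 and Ebi3 on 17. They were selected on their function and on the measured fold changes between the groups, because Il12b and Il12rb2 were past the threshold, so their differences between groups are given as a description without a test. MC38 is a mouse colon cancer cell line, and the cells had been implanted under the skin of both flanks of wild-type C57BL/6J mice aged 6 to 8 weeks. On day 7, when tumors measured 5 to 6 mm, the tumor of 1 flank was frozen with a cryoprobe in the cryoablation group, and the tumor of the other flank, which was never frozen, was taken 5 days later for bulk RNA sequencing. There were 9 control tumors and 8 cryoablation tumors. The labels number the tumors within each group but name no mouse, so that the spread below is the spread between these samples. The labels call the samples MC38 cells, whereas each sample was a whole tumor with the host cells in it, and the labels do not say whether control mice had a sham procedure.

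IL-12 is made of the p40 chain (Il12b) and the p35 chain (Il12a), and IL-23 of the same p40 chain and p19 (Il23a). IL-27 is made of p28 (Il27) and Ebi3, and both chains of a given cytokine are needed in the same cell for its secretion as a heterodimer. Dendritic cells and macrophages are the main source of IL-12, which binds IL-12Rβ1 (Il12rb1) and IL-12Rβ2 (Il12rb2) on activated T and NK cells and signals through STAT4 to interferon gamma. IL-18, released after cleavage by caspase-1, acts with IL-12 on cells that carry the IL-18 receptor (Il18r1). In tumors, this axis is known for type 1 immunity and the recruitment of CXCR3-bearing T cells.

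The promoters of the pair of members past the threshold are shown because the cytokine chain and the receptor chain are switched on in different cells by different factors. The RefSeq promoter table (assembly GRCm38.p6) held 11 windows for 7 of the 10 members, and the 250 bases before the start were searched on both strands for 4 motifs. Il12b lies on chromosome 11, and its window is chr11:44399813-44400062 on the plus strand. Il12rb2 lies on chromosome 6, and its window is chr6:67376189-67376438 on the minus strand. Capitals mark motif matches, and both sequences run 5′ to 3′ and end 1 base before the start.
Il12b promoter: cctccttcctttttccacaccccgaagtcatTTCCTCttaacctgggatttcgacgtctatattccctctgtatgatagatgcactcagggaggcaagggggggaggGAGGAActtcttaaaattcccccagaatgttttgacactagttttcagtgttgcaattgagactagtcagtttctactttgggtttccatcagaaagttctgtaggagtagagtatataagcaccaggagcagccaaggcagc
Il12rb2 promoter: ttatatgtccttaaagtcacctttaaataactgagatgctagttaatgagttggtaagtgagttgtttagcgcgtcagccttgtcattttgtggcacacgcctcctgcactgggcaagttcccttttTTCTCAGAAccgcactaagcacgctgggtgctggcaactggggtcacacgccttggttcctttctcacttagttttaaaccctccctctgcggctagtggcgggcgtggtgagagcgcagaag
In the Il12b promoter the capitals are matches to the PU.1 core GAGGAA, 1 on the plus strand at positions -143 to -138 from the start and 1 on the minus strand at -219 to -214. PU.1 is a transcription factor of myeloid cells, and 23.3% of all 32851 windows of this length held its core. In the Il12rb2 promoter the capitals are a match to the STAT element TTCNNNGAA at -123 to -115, which 7.02% of all windows held. The same element was matched 2 times before 1 of the Il18r1 starts, together with a PU.1 core. An interferon regulatory factor element, GAAA 2 times with 2 bases between, was matched before 1 Stat4 start and was present in 2.98% of all windows. Ebi3 had 1 PU.1 core. The fourth motif, the NF-kappaB element of GGG and TTTCC with 2 bases between, was matched in none of the member windows and in 1.41% of all windows. Il23a, Il27 and Il12rb1 had no entry in that table. A match is a description of the letters and not of binding, and a site with other letters would not be matched.

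Reads counted on genes ranged from 14154687 to 17898672 per control tumor and from 13524899 to 16847050 per cryoablation tumor, and values below are CPM, the counts scaled to the TMM-normalized library sizes, unless FPKM is named. At this depth several members had few reads. Il12a had at most 3 counts in 14 of 17 tumors, Il23a in 7 and Il12rb2 in 5. Of the 10 members, 8 passed the filter on low counts, and Il12a and Il23a did not. The sum of the macrophage markers was 1038 to 2876 CPM in control tumors and 795 to 3654 in cryoablation tumors, and that of 11 T cell markers was 36.4 to 180.5 and 27.7 to 129.4. The NK cell sum was 34.4 to 146.6 and 32.8 to 105.5, the Treg sum 7.69 to 48.1 and 9.46 to 27.3, and the B cell sum 0.658 to 9.12 and 0.179 to 4.92. The epithelial sum was 16.5 to 96.4 (mean 36.7) in control and 10.4 to 214 (mean 79.8) in cryoablation tumors, with the intestinal factor Cdx2 at 0 in every tumor. The red blood cell sum was 6.16 to 74.6 (median 12.3) in control and 25.1 to 175 (median 47.2) in cryoablation tumors, and all 8 cryoablation tumors were above the control median. The part of these markers in the differences of the members was not tested. The sums of keratinocyte markers (182 to 444 and 205 to 664), fibroblast markers (2225 to 6669 and 2177 to 3389) and neutrophil markers (8.67 to 73.8 and 8.65 to 59.2) overlapped between groups. In whole tumors, fewer cells of a type and less RNA per cell cannot be told apart. Control replicate 4 stood apart, with the highest summed CPM of all 17 tumors for the T cell, NK cell, conventional dendritic cell, mature dendritic cell, neutrophil, B cell, Treg and fibroblast markers. Control replicate 4 also had the highest value of 7 of the 10 members. Cryoablation replicates 2, 4 and 5 stood apart in the sum of their deposited FPKM over all genes, at 371963, 373783 and 390138, against 280632 to 342871 in control tumors. This sum is higher where more of the counts lie on short genes. Fold changes of the tested members are given with and without some of these tumors. Most levels, chain ratios and pathway results are given for all tumors only.

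Compared per gene length, the levels fell into a wide order. In control tumors Il18 had the highest FPKM at 6.73 ± 1.51 (SD, n = 9), followed by Il12rb1 at 4.89 ± 1.57. Then came Ebi3 at 1.87 ± 0.90 FPKM, Il27 at 1.68 ± 1.21, Il18r1 at 1.18 ± 0.72, Il12b at 1.03 ± 1.18, Stat4 at 0.53 ± 0.38 and Il12rb2 at 0.31 ± 0.22. Il23a, at 0.11 ± 0.061 FPKM, and Il12a, at 0.098 ± 0.13, were lowest. Of the neighbours in this order, only Il12rb1 and Ebi3 were separated by more than their SDs, and Il12rb1 was above Ebi3 in 17 of 17 tumors. All other neighbours overlapped within 1 SD.

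**Figure D1:**
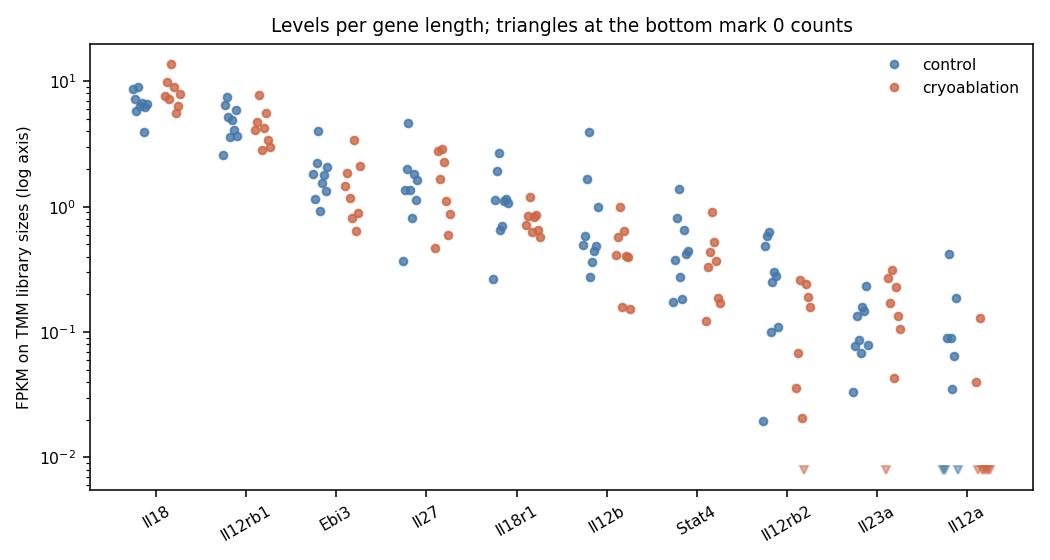
FPKM on TMM-normalized library sizes (log axis) of the 10 members in each of 9 control and 8 cryoablation tumors, ordered by the control mean. Points are tumors and triangles mark 0 counts, as in 9 tumors for Il12a. Il18 and Il12rb1 have the highest means, and their points overlap those of other members.

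The chains of each complex were present at unequal levels. Il12b was above Il12a in 17 of 17 tumors and above Il23a in 16. The ratios of the mean FPKM were 10.5 and 9.08 in control and 22.2 and 2.96 in cryoablation tumors. Without control replicate 4, the control mean of Il12b fell from 2.03 to 1.31 CPM and that of Il12a from 0.167 to 0.099. For Il23a the control mean was 0.255 with that tumor and 0.262 without it. The chains of IL-27 were close, with Ebi3 over Il27 in 9 of 17 tumors and a ratio of means of 1.12 in control and 0.980 in cryoablation tumors. Il12rb1, the chain shared by the IL-12 and IL-23 receptors, was above Il12rb2 in 17 of 17 tumors, and the ratio of means was 15.9 for control and 36.9 for cryoablation tumors. Il23r, the second chain of the IL-23 receptor, had 0 to 4 counts. Il18rap, the accessory chain of the IL-18 receptor, was above Il18r1 in every tumor. Il18bp, the secreted inhibitor that binds IL-18, had 1.42 times the mean FPKM of Il18 in control tumors and 0.865 times in cryoablation tumors.

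**Figure D2:**
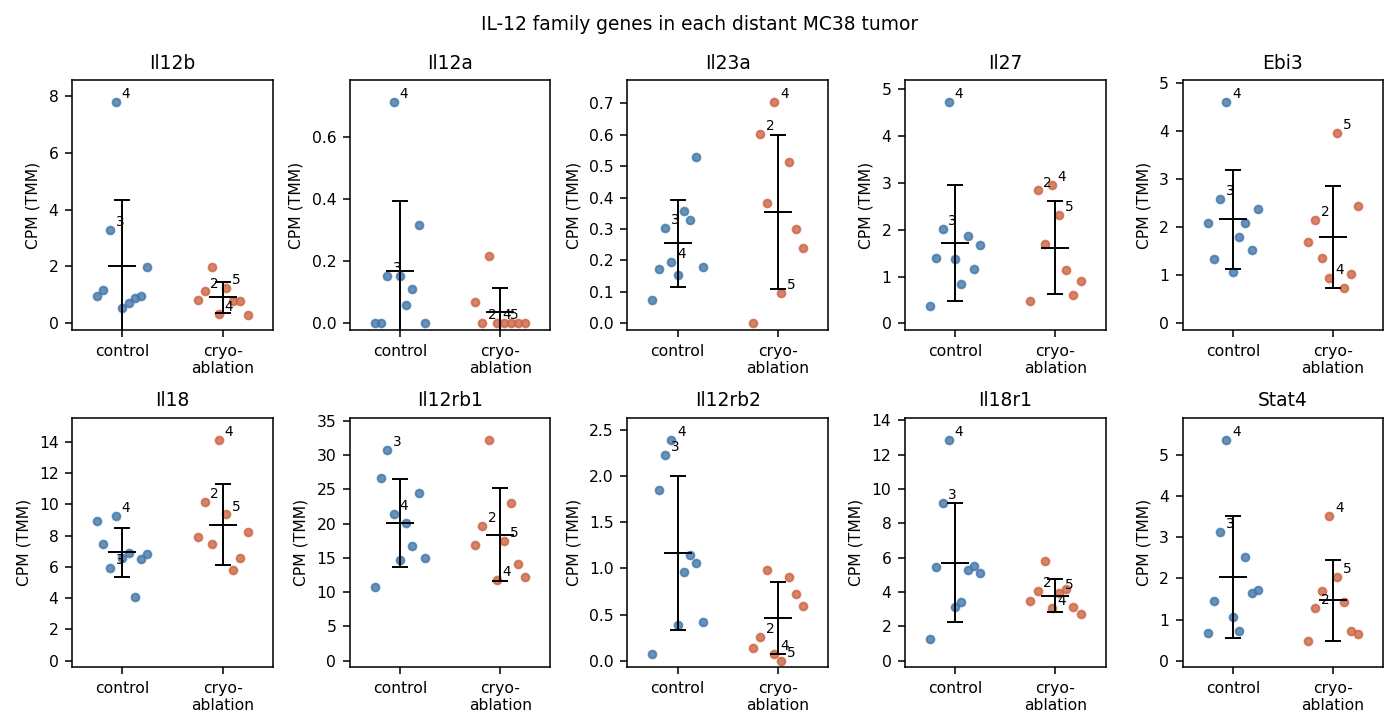
CPM of each member in each tumor, with the group mean and SD as a black bar. Numbers name control replicates 3 and 4 and cryoablation replicates 2, 4 and 5, and the panels show control replicate 4 highest for 7 genes, including Il12b at 7.77 CPM and Il18r1 at 12.9 CPM.

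Among the cytokine chains, Il12b differed most between groups of those tested. Il12b (ENSMUSG00000004296) ranged from 0.536 to 7.77 CPM in control tumors, with a median of 0.971, and from 0.298 to 1.97 in cryoablation tumors, with a median of 0.805. The means were 2.03 ± 2.31 (SD, n = 9) and 0.918 ± 0.540 (n = 8). The difference in the means lay mostly in control replicates 4 and 3, at 7.77 and 3.29 CPM, and the medians were close. Only 3 control tumors were above the highest cryoablation tumor, and 5 of 8 cryoablation tumors were below the control median. The log2 fold change of cryoablation over control was -1.14 ± 0.53 (SE). It was -0.53 without control replicate 4 and -0.17 without control replicates 3 and 4, where the control mean was 0.908 ± 0.460 CPM. Without cryoablation replicates 2, 4 and 5 it was -1.11.

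Il12a, the p35 partner that only IL-12 and IL-35 use, was near the limit of detection. Its counts in control tumors 1 to 9 were 0, 0, 3, 11, 2, 1, 2, 6 and 0, and in cryoablation tumors 1 to 8 they were 1, 0, 4, 0, 0, 0, 0 and 0. By group, 6 of 9 control and 2 of 8 cryoablation tumors had a read, and the groups overlapped. No fold change is given for so few reads. Il23a, the p19 chain, had 1 to 10 counts in control and 0 to 9 in cryoablation tumors, with means of 0.255 ± 0.138 and 0.355 ± 0.244 CPM, and 6 of 8 cryoablation tumors were above the control median.

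Il27 had close medians in both groups and varied widely within them. It ranged from 0.373 to 4.72 CPM (median 1.39) in control and from 0.475 to 2.97 (median 1.42) in cryoablation tumors, and 4 of 8 cryoablation tumors were above the control median. Its log2 fold change was -0.11 ± 0.43 (SE), and it was 0.23 without control replicate 4 and -0.83 without cryoablation replicates 2, 4 and 5. Ebi3 ranged from 1.07 to 4.59 CPM (median 2.08) in control and from 0.740 to 3.96 (median 1.53) in cryoablation tumors. The Ebi3 groups overlapped, although 3 cryoablation tumors were below the lowest control tumor, and the log2 fold change was -0.29 ± 0.34. It was -0.08 without control replicate 4, 0.002 without control replicates 3 and 4, and -0.58 without cryoablation replicates 2, 4 and 5.

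Il18 was the only tested member with a higher mean in the cryoablation group. Il18 ranged from 4.05 to 9.25 CPM (median 6.85) in control and from 5.80 to 14.1 (median 8.08) in cryoablation tumors, with means of 6.94 ± 1.56 (SD, n = 9) and 8.71 ± 2.60 (n = 8). The highest values were those of cryoablation replicates 4 and 2, and 3 cryoablation tumors were above the highest control tumor. The log2 fold change was 0.33 ± 0.18 (SE). It was 0.05 without cryoablation replicates 2, 4 and 5, and also 0.05 in a fit that removed the trend of each tumor over gene length. Cryoablation replicates 2, 4 and 5 also had the highest macrophage sums of their group (3230, 2633 and 3654 CPM), and likewise the highest epithelial (141.1, 141.3 and 214), keratinocyte (442, 408 and 664) and red blood cell sums (141.8, 91.5 and 175). With the macrophage sum, Il18 had r = 0.57 and rho = 0.58 over all tumors after removal of the group means (adjusted permutation p = 0.058 and 0.060), 0.55 without the 2 farthest tumors, 0.24 in control tumors (exact permutation p = 0.54, n = 9) and 0.77 in cryoablation tumors (exact permutation p = 0.024, n = 8, not adjusted). The part of these markers in the difference of Il18 was not tested.

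Of the receptor chains, Il12rb2 was lower and Il12rb1 nearly level. Il12rb2 (ENSMUSG00000018341) had counts of 1, 32, 44, 37, 5, 16, 21, 20 and 7 in control tumors 1 to 9, and of 2, 3, 18, 1, 0, 16, 12 and 10 in cryoablation tumors 1 to 8. In CPM the control tumors ranged from 0.075 to 2.39 (median 1.06, mean 1.17 ± 0.83), and the cryoablation tumors from 0 to 0.983 (median 0.427, mean 0.461 ± 0.390). All 8 cryoablation tumors were below the control median and 5 of 9 control tumors were above the highest cryoablation tumor, while 4 control tumors, replicates 1, 5, 6 and 9, lay within the cryoablation range. The log2 fold change was -1.26 ± 0.58 (SE). It was -0.81 without control replicates 3 and 4, and -0.80 without cryoablation replicates 2, 4 and 5. In the table, 6419 of the 84871 bases spanned by Il12rb2 are shared with Serbp1 on the other strand, a gene with a mean of 11664 counts. Strand use in the counting is not given, so that reads of the overlap cannot be assigned with certainty. Across tumors the group-centred values of Il12rb2 and Serbp1 ran in opposite directions (r = -0.65, n = 17, from the same libraries).

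Il12rb1 ranged from 10.7 to 30.7 CPM (median 20.1) in control and from 11.7 to 32.2 (median 17.2) in cryoablation tumors, where replicate 3 had the highest value of all. The groups overlapped almost fully, and the log2 fold change was -0.13 ± 0.22. It was -0.0004 without control replicates 3 and 4, and -0.04 without cryoablation replicates 2, 4 and 5. Il18r1 ranged from 1.27 to 12.9 CPM (median 5.31) in control and from 2.74 to 5.79 (median 3.71) in cryoablation tumors. The lowest and the highest Il18r1 values were both those of control tumors, and 7 of 8 cryoablation tumors were below the control median. Its log2 fold change was -0.59 ± 0.32, and -0.15 without control replicates 3 and 4.

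Stat4, the transcription factor that IL-12 activates, ranged from 0.672 to 5.37 CPM (median 1.64) in control and from 0.475 to 3.51 (median 1.36) in cryoablation tumors. The highest tumor was control replicate 4 and the next was cryoablation replicate 4. Its log2 fold change was -0.48 ± 0.44. It was 0.04 without control replicates 3 and 4, and -1.03 without cryoablation replicates 2, 4 and 5, so that its sign rested on which tumors were kept.

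**Figure D3:**
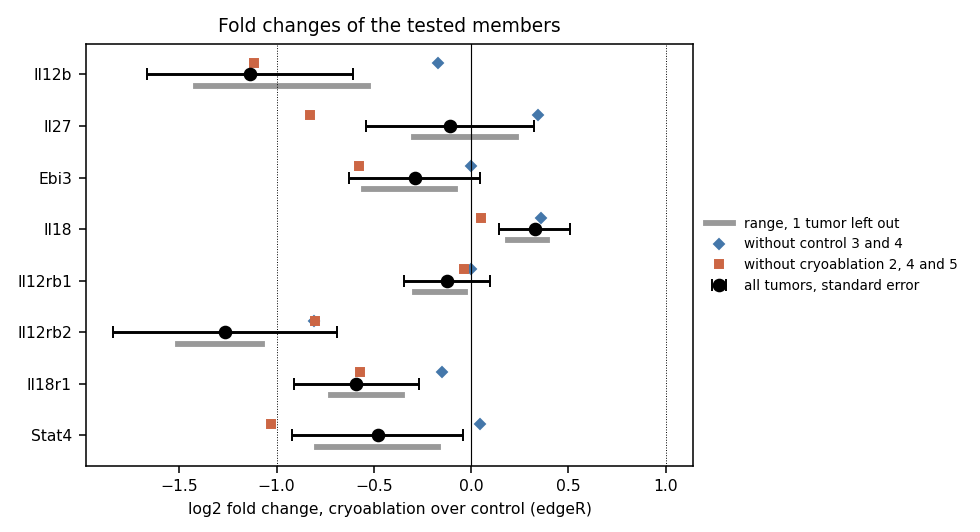
Log2 fold change (cryoablation over control) of the 8 tested members, with the standard error, the range when 1 tumor is left out in turn (grey), and the values without control replicates 3 and 4 (diamonds) or without cryoablation replicates 2, 4 and 5 (squares). Dotted lines mark the threshold of 1. Il12b moves from -1.14 to -0.17 without control replicates 3 and 4.

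In the comparison of the groups, a gene was called when the absolute log2 fold change was over 1 and the unadjusted p was under 0.05. Of the members, 2 of the 8 tested were called, Il12b and Il12rb2, both lower, where 0.492% of the 13005 genes tested were called in either direction and 0.138% were called lower. The members were chosen with these calls known, so the counts are not set against each other. Just inside the threshold were Il12b at -1.14 and Il12rb2 at -1.26, and next outside it was Il18r1 at -0.59. Of the 8, 7 had a log2 fold change below 0 and the median was -0.39, where 51.97% of all genes tested were below 0 and their median was -0.01. With Benjamini-Hochberg adjustment, edgeR called 0 of the 13005 genes at an adjusted p under 0.05, where 639 (4.91%) had an unadjusted p under 0.05. DESeq2 and limma voom also called 0 after adjustment. Leaving out 1 tumor at a time, Il12b was called in 8 of 17 fits (-1.41 to -0.53) and Il12rb2 in 10 of 17 (-1.51 to -1.08). Without control replicates 3 and 4, and also without cryoablation replicates 2, 4 and 5, 0 members were called. After removal of the trend over gene length, Il12b (-1.20) and Il12rb2 (-1.23) were both called. With limma voom Il12b (-0.83) was not called, and Il12rb2 (-1.29) and Stat4 (-1.11) were. Without control replicate 9, Il12rb2 was called and Il12b was not, with (-0.69) or without (-1.15) replicate number as an added term.

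None of the other genes of the pathway was past the threshold. Of 58 listed genes 51 were tested, 12 had a higher and 39 a lower value in the cryoablation group, and 0 were called. Of all genes tested, 51.97% were below 0. The directions and fold changes of the lists are given for all 17 tumors only, with control replicate 4 kept. None of the 51 pathway genes reached an unadjusted p under 0.05 in edgeR, where DESeq2 had 2 and limma voom 4, and the smallest Benjamini-Hochberg adjusted p from edgeR was 0.728. Their median log2 fold change was -0.13 and their range was -0.95 (Tlr9) to 0.65 (Cebpb). The smallest unadjusted p values in edgeR were 0.0556 for Cxcr3, the receptor of the interferon-induced chemokines, at -0.82 ± 0.40, and 0.0560 for Rela, the NF-kappaB subunit p65, at 0.21 ± 0.10.

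Of the receptor chains, kinases and STATs, 6 of 7 tested genes were lower. The kinases that sit on the IL-12 receptor gave -0.19 ± 0.16 (Jak2) and -0.05 ± 0.13 (Tyk2). The IL-27 receptor chains gave -0.30 ± 0.35 (Il27ra) and -0.20 ± 0.22 (Il6st, the shared chain gp130), and their kinase Jak1, the gene of this list with the most counts, gave -0.17 ± 0.13. Stat3, used by IL-23 and IL-27, was at -0.11 ± 0.19. None of the genes named here passed the threshold. Of the 8 genes of the IL-18 arm 6 were lower, among them Il18rap at -0.30 ± 0.22 and Il18bp at -0.39 ± 0.23, while the signalling kinase Irak1 was at -0.07 ± 0.11.

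In the type 1 response list, 12 of 13 genes were lower in the cryoablation group and 1 was higher, with control replicate 4 kept. The chemokine Cxcl9, which had the most counts of this list, was at 365 ± 173 CPM in control and 276 ± 94.3 CPM in cryoablation tumors (log2 fold change -0.40 ± 0.26). Of 14 tested inducers of the cytokine chains 9 were lower, and Irf1, the one with the most counts, was at -0.08 ± 0.16. In the IL-23 and IL-17 arm 3 of 7 genes were tested, and Il17ra was at -0.19 ± 0.17. Il22 had no read in any of the 17 tumors, which allows up to 3 counts in each. Of the 6 tested brakes 4 were lower, and Socs3, a feedback inhibitor of cytokine receptors, was at 0.02 ± 0.18.

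**Figure D4:**
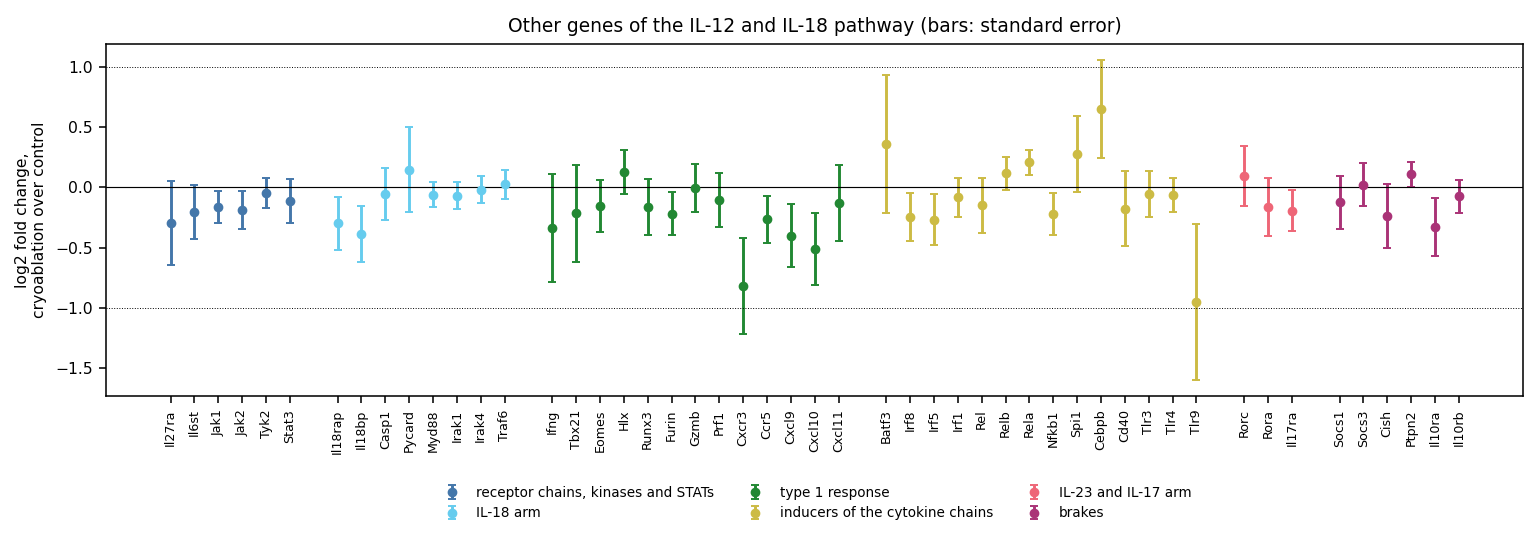
Log2 fold change (cryoablation over control) with the standard error for the other pathway genes tested and reported here, by list. Most points lie between 0 and -0.5, 39 lie below 0, and none was past the threshold of 1 (dotted lines).

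The variation among tumors of the same group was set against markers of the cells that make or read IL-12. The rule did not use this variation directly, but Il12b was past the threshold with control replicate 4 (-1.14) and not without it (-0.53). That tumor also had the highest T cell, NK cell and dendritic cell sums. The relations of Il12b are therefore not independent of the choice of members. The SD of log2 CPM among control tumors was 1.20 for Il12rb2, 1.13 for Il12b, 0.92 for Il18r1 and 0.91 for Stat4, and in the cryoablation group it was 1.18, 0.79, 0.33 and 0.86. It was 0.34 and 0.39 for Il18. Their mean counts over all tumors were 14.4, 24.4, 78.4, 28.1 and 118.9, and since low counts alone widen this SD, it is not compared between genes.

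Each member was compared with 5 marker sums after removal of the group means, which gave 40 relations over 17 tumors. Of these, 16 had a Benjamini-Hochberg adjusted permutation p under 0.05, all with r above 0, and 13 of the 40 did so by Spearman's rho. Without control replicate 4 there were 10, of which 8 were among the 16, and without control replicates 3 and 4 there were 9, of which 7 were. By r, Il27 passed with all 5 sums, Ebi3, Stat4 and Il18r1 with 3 each and Il12b with 2, and Il12rb1, Il12rb2 and Il18 with none. By rho, the 3 relations of Ebi3 did not pass (adjusted permutation p = 0.15 each). Nor did Il27 with the mature dendritic cell sum (adjusted permutation p = 0.066) and Il12b with the conventional dendritic cell sum (adjusted permutation p = 0.055). By rho alone, Il12rb1 with the T cell sum (rho = 0.63, adjusted permutation p = 0.035) and Il18 with the mature dendritic cell sum (rho = 0.61, adjusted permutation p = 0.045) passed. Members and marker genes were measured in the same libraries.

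Stat4 followed the conventional dendritic cell sum most closely (r = 0.87, rho = 0.86, adjusted permutation p = 0.00040 and 0.0014). The r was 0.93 in control and 0.81 in cryoablation tumors, and 0.88 without the 2 tumors farthest from the median. Il27 followed the NK cell sum (r = 0.88, rho = 0.85, adjusted permutation p = 0.00040 and 0.0014), with 0.82 without the 2 farthest tumors. Il18r1 followed the T cell sum (r = 0.72, rho = 0.78, adjusted permutation p = 0.0022 and 0.0025), with 0.66 without the 2 farthest tumors, 0.93 in control and 0.49 in cryoablation tumors. Its r was higher with the conventional dendritic cell sum (r = 0.81, rho = 0.78, adjusted permutation p = 0.0018 and 0.0036), with 0.70 without the 2 farthest tumors. Leaving out the 2 farthest tumors thus left r at 0.66 or above for these relations of Stat4, Il27 and Il18r1. For their other relations past the threshold it ranged from 0.39 (Il27 with the mature dendritic cell sum) to 0.81 (Il27 with the conventional dendritic cell sum). Il12b with the T cell sum had r = 0.69 and rho = 0.66 (adjusted permutation p = 0.014 and 0.028), and 0.52 without the 2 farthest tumors. Il12b with the conventional dendritic cell sum had r = 0.72 (adjusted permutation p = 0.015) but rho = 0.58 (0.055), and 0.36 without the 2 farthest tumors, control replicate 4 and cryoablation replicate 3, and so rested on those tumors.

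For Il12rb2, r with the T cell and NK cell sums had opposite signs in the 2 groups. With the T cell sum its pooled r was 0.15 (rho 0.30, adjusted permutation p = 0.61 and 0.35). Among control tumors r was 0.81 (exact permutation p = 0.0090, n = 9), and 0.90 without control replicate 4. Among cryoablation tumors it was -0.53 (exact permutation p = 0.18, n = 8), where replicates 2 and 5 had the highest T cell sums, 129.4 and 121.7 CPM, and 3 and 0 counts of Il12rb2. The NK cell sum gave 0.83 in control tumors (exact permutation p = 0.0070, n = 9) and -0.62 in cryoablation tumors (exact permutation p = 0.11, n = 8). With the mature dendritic cell sum r was 0.05 in control tumors (exact permutation p = 0.89, n = 9) and -0.86 in cryoablation tumors (exact permutation p = 0.0070, n = 8). With the macrophage sum it was -0.04 (exact permutation p = 0.92, n = 9) and -0.77 (exact permutation p = 0.029, n = 8). These within-group p values are not adjusted, and the difference between the groups was not tested. In a relation added after the data were seen, over the 8 members, Il12rb2 was lower where the summed FPKM was higher (r = -0.76, rho = -0.68, adjusted permutation p = 0.0041 and 0.028). The r was -0.73 in control and -0.86 in cryoablation tumors, -0.71 without cryoablation replicates 2, 4 and 5, and -0.65 without the 2 farthest tumors. Il18 ran the other way (r = 0.63, rho = 0.67, adjusted permutation p = 0.031 and 0.028), with 0.26 in control and 0.85 in cryoablation tumors, 0.53 without the 2 farthest tumors and 0.38 without cryoablation replicates 2, 4 and 5. The part of the share of short genes in the group difference of Il18 and Il12rb2 was tested only by the gene length fit given above.

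**Figure D5:**
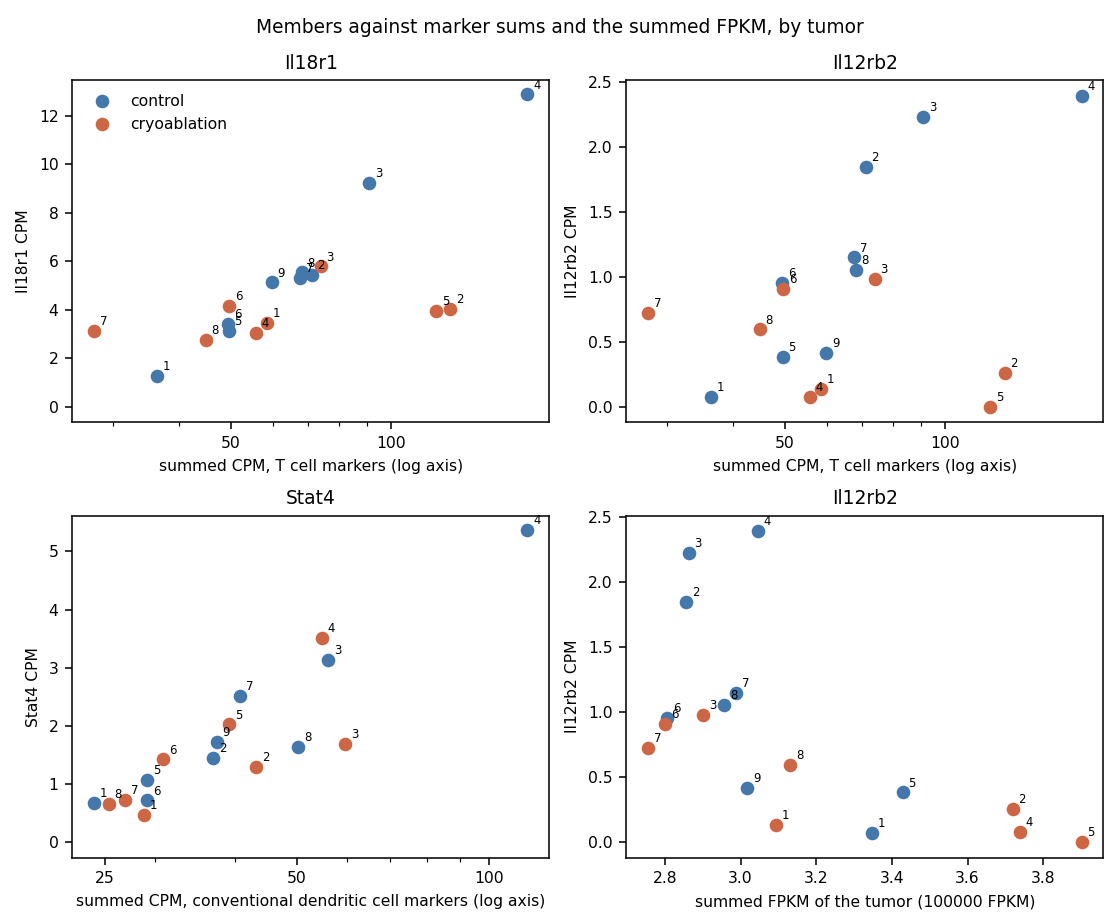
CPM of Il18r1, Il12rb2 and Stat4 against marker sums (log axes, summed CPM) and of Il12rb2 against the summed FPKM (in units of 100000), with 1 numbered point per tumor. Il18r1 follows the T cell sum (r = 0.72), and Il12rb2 does so in control tumors (r = 0.81) but not in cryoablation replicates 2 and 5.

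The genes whose values were most like each member were found by Pearson's r of group-centred log2 CPM over 17 tumors among all genes tested, as a description. For Il12rb2 they were Gbp5 (0.94) and Gvin2 (0.93), which are interferon-induced GTPase genes, and Ptpn22 (0.94), a phosphatase of lymphocytes. For Il18r1 they were Icos (0.96), a T cell costimulatory receptor, Bcl11b (0.96), a T cell transcription factor, and Mfsd7a (0.95). For Il12b they were Sting1 (0.90), the adaptor of cytosolic DNA sensing, Gimap4 (0.89) and Gpr132 (0.89). Il27 was nearest to the chemokine Ccl5 (0.95), Ly6i (0.91) and Plac8 (0.91). Stat4 was nearest to Il27 itself (0.90), Socs1 (0.90) and Gng2 (0.89). Il12rb1 was nearest to Tapbpl (0.93), Ciita (0.92), the regulator of MHC class II genes, and Serpina3f (0.91). For Ebi3 (Cln3 0.84, Bin2 0.84, Arid5a 0.83) and Il18 (Gpatch3 0.83, Slc25a38 0.82, Rab29 0.81) the nearest genes were less close. Among the members, the pair nearest to each other was Il27 and Stat4. Il12b and Il18r1 had r = 0.74, and Il12rb1 and Il18r1 0.73, while the pair of IL-12 receptor chains had 0.90 in control and 0.41 in cryoablation tumors.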

How the data were processed

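Distant MC38 tumors were profiled by bulk RNA sequencing, 9 of the control and 8 of the cryoablation group, and groups were taken from the labels, with 0 columns left without a label. The text of the study gives the group sizes the other way round, and the labels were followed. The authors deposited a read count per gene and tumor, not normalized, and FPKM, which equalled count over listed gene length and total count in 100% of values within 1e-06. The submitters' processing notes name GRCm38 and mm10. The aligner, counter and strand setting are not given in the sources used here. The table's positions differ from GENCODE M21 (GRCm38) for all 10 members, so none of its coordinates are printed, and promoter coordinates are RefSeq's.

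Counts were fitted with edgeR 4.0.16 in R 4.3.3 (TMM, filterByExpr by group, quasi-likelihood F test, group as the only term), after testing on simulated data. FPKM given here were rescaled to TMM library sizes. Relations used log2 CPM with a prior count of 2, centred by group, and 100000 permutations within groups (two-sided), adjusted by Benjamini-Hochberg over 40 relations, or 8 for the summed FPKM. Exact permutation tests within a group are two-sided. Alternatives were DESeq2 1.42.0, limma 3.58.1 voom with sample weights, other scalings and filters, a gene length offset (spline with 4 degrees of freedom), a replicate block and leaving out tumors. The named genes are all members, each pathway gene called or with an unadjusted p under 0.05, and the reported genes of the list of receptor chains, kinases and STATs. The gene with the most counts of each list and the 3 genes most like each member are also named. Tlr9, Cebpb, Cxcr3, Rela, Il18rap, Il18bp, Il22 and Serbp1, and the genes named with the alternatives, were chosen after their values were seen. A gene of the pathway lists is counted but not reported here. The members and lists were chosen with earlier results of these data known. A total of 13524899 to 17898672 counts per tumor limits the precision of genes with few counts.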

Additional observations from a re-analysis of the deposited data

Results flagged for a closer look

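In 14 of 44 groups of values checked, the highest tumor stood farther from the next than Dixon's 95% limit allows. Of the 14, 11 were control replicate 4. CPM values are bounded at 0 and the 44 groups share the same tumors, so this count is not set against a chance rate. Among the members in CPM, control replicate 4 stood out for Il12a (0.712, next 0.317), Il12b (7.77, next 3.29), Il27 (4.72, next 2.03) and Ebi3 (4.59, next 2.58). Cryoablation replicate 3 stood out within its group for Il12a (0.218, next 0.068) and Il18r1 (5.79, next 4.15). Among the marker sums in CPM, control replicate 4 stood out for T cells (180.5), NK cells (146.6), conventional dendritic cells (114.9), mature dendritic cells (138.2), neutrophils (73.8), B cells (9.12) and fibroblasts (6669). Control replicate 5 stood out for red blood cell markers (74.6). The high Il12b of control replicate 4 came with high sums of lymphoid, dendritic cell and stromal markers, and their part in it was not tested.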

How the results depend on the processing

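The 224 alternative values of the members' log2 fold changes stayed within 1 SD of log2 CPM between tumors. This limit is wide and does not show stability: Il12b moved from -1.14 to -0.17 without control replicates 3 and 4 and stayed within it, as did 6 values whose sign turned. The sign of Il27 turned in 4 of 28 alternatives, and those of Ebi3 and Stat4 in 1 each, without control replicates 3 and 4. With limma voom Il12b (-0.83) was not called, and Il12rb2 (-1.29) and Stat4 (-1.11) were. The number of genes called over all genes, 64, was 432 without the filter on low counts, 39 with the gene length offset, 41 without control replicates 3 and 4 (chosen after seeing the data) and 34 to 165 when 1 tumor was left out. It was 34 without cryoablation replicate 5, 39 without cryoablation replicate 2, 165 without cryoablation replicate 3, 122 without control replicate 1, 120 without control replicate 5 and also without cryoablation replicate 6, and 106 without cryoablation replicate 7. Of those called, 46 were higher and 18 lower, against 10 and 69 with limma voom, 17 and 22 with the length offset, 222 and 210 without the filter, 13 and 20 with the replicate block, 36 and 21 with upper-quartile scaling, 7 and 50 without cryoablation replicates 2, 4 and 5, 37 and 4 without control replicates 3 and 4, and 42 and 4 without control replicate 4. Across the fits that left out 1 tumor, 15 to 93 were higher and 4 to 74 lower. Pathway genes called, 0, were 1 without the filter (Ccr6, lower), 2 without cryoablation replicates 2, 4 and 5 (Batf3 and Ifng, lower) and 0 to 2 when 1 tumor was left out (Tlr9 and Cxcr3, lower, without cryoablation replicate 3). Relations past the threshold, 16, were 9 without control replicates 3 and 4 and 10 to 21 when 1 tumor was left out, with 10 without control replicate 4. The labels do not say whether replicate numbers pair the tumors. Same-numbered tumors correlated above 0.1 in 4 of 8 pairs (r -0.51 to 0.64), and 2 of 8 cryoablation tumors correlated best with their own number. These values cannot settle whether the numbers pair them. With the replicate block, 33 genes were called, with Il12rb2 (-1.40) but not Il12b (-0.69), and 1 pathway gene (Cebpb, higher), against 55 genes, Il12rb2 again called and Il12b not, in the same 16 tumors without the block (also chosen after seeing the data). The other 62 alternative totals stayed within 1.5 times or were equal, whatever their split into higher and lower. They include the pathway totals that were 0 in both fits, which say little of stability. The cause of these changes was not tested. Depth limits Il12a, Il23a and Il12rb2, which had at most 3 counts in 14, 7 and 5 tumors.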
